A study of Mus musculus with 6 samples.

Results

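Type 1 and cytotoxic effector genes are the genes with which helper T cells, CD8 T cells and natural killer cells fight infected cells. A list of 10 was followed here, namely Tbx21, Eomes, Ifng, Cxcr3, Ccl5, Nkg7, Gzma, Gzmb, Gzmm and Ctsw, out of 16911 named genes in 19048 transcript rows. The list was chosen with earlier results of these data known. Each gene was taken as the row of its RefSeq transcript with the highest total, and each of the 10 had 1 row. RNA came from sorted naive CD4 T cells of C57BL/6 mice, which are resting helper T cells before their first contact with antigen. The libraries are 3 from wild-type littermates (WT1, WT2 and WT3) and 3 from TRIM28KO mice with the genotype Trim28 KO (KO1, KO2 and KO3). The protein made from Trim28 is a corepressor that DNA-bound zinc finger proteins recruit to silence chromatin. The age of the mice, how Trim28 was deleted and in which cells, and whether each library is a separate mouse are not given in the sources used here. Tests of significance therefore measure the spread between these libraries.

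Naive CD4 T cells normally keep most of these genes low. T-bet, the product of Tbx21, and the related T-box factor Eomes drive the type 1 and cytotoxic programs once cells are activated, together with Stat4, which acts below the interleukin-12 receptor, and Runx3. Their known targets include the cytokine interferon gamma and the receptor Cxcr3, and cytotoxic cells also store granzymes and cathepsin W in granules.

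The libraries held between 22005759 and 44372701 reads. A normalized read count is a read count divided by the size factor of its library, and 1 read was worth between 0.714 and 1.46 of it. Trim28 was at 8287 to 9428 normalized reads in the wild-type libraries and at 738, 628 and 1247 in KO1, KO2 and KO3, low in each library labelled knockout. KO3 stood apart from the other 5 libraries in several ways. Transcripts were detected in 92.4% of its rows, against 83.2% to 88.6% in the others. Its naive CD4 T cell markers (Cd4, Cd3e, Cd3d, Cd3g, Ccr7, Lef1, Tcf7, Il7r and Satb1) summed to 130515, below the 151122 to 169905 of the others, and markers of several other cell types were highest in it, as given below. The defining markers Cd4 (27990 to 34970) and Cd3g (20961 to 24550) were high in all 6 libraries. Cd3e, another of these markers, was less even, at 5077, 8097 and 5369 in the wild-type libraries. Its values were 13743 for KO1, 9911 for KO2 and 5730 for KO3. Cd3e rose by 0.95 on the log2 scale once KO3 was dropped (limma adjusted p 0.0285). With all libraries the rise was 0.61 and did not pass (limma adjusted p 0.461). Y-linked transcripts summed to 13625 in WT1 and 12677 in KO2 and to at most 2.39 elsewhere, so the other libraries, KO3 included, held almost none. Results are therefore given with and without KO3.

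None of the 10 genes was called between knockout and wild type. Rows with a mean of at least 10 normalized reads were tested, which all 10 genes passed, with or without KO3. In limma, 0 of 10 rose and 0 fell at a Benjamini-Hochberg adjusted p under 0.05 over all tested rows. The background was 1.51% of 13022 rows called, 1.19% as higher and 0.315% as lower in the knockout. Below an unadjusted p of 0.05 there was 1 gene, Gzma, against 12.7% of all rows. With voom weights on the recovered reads 0 were called as well. All 10 log2 fold changes were above 0, with a median of 0.97, while the median of all tested rows was 0.0019. Without KO3 the median of the 10 was 0.04, with 6 above 0, and again 0 were called in limma. The background was then 4.3% of 12856 rows, 2.75% as higher and 1.55% as lower. Gzma was again the 1 gene below an unadjusted p of 0.05, against 21.2% of all rows.

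The height of KO3 is what most of the 10 genes have in common. It was the highest of the 6 libraries in 8 of the 10 genes, against 19.3% of all tested rows. In 7 of the 10, namely Tbx21, Ifng, Cxcr3, Ccl5, Nkg7, Gzma and Gzmb, it was at least 2-fold above the next highest library, which held for 3.22% of all rows. No other library was 2-fold above the next in any of the 10. Since the 10 genes were chosen with earlier results of these data known, these counts are a description and not a test. KO1 and KO2 both lay within the wild-type range in 6 of the 10 genes.

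**Figure D1:**
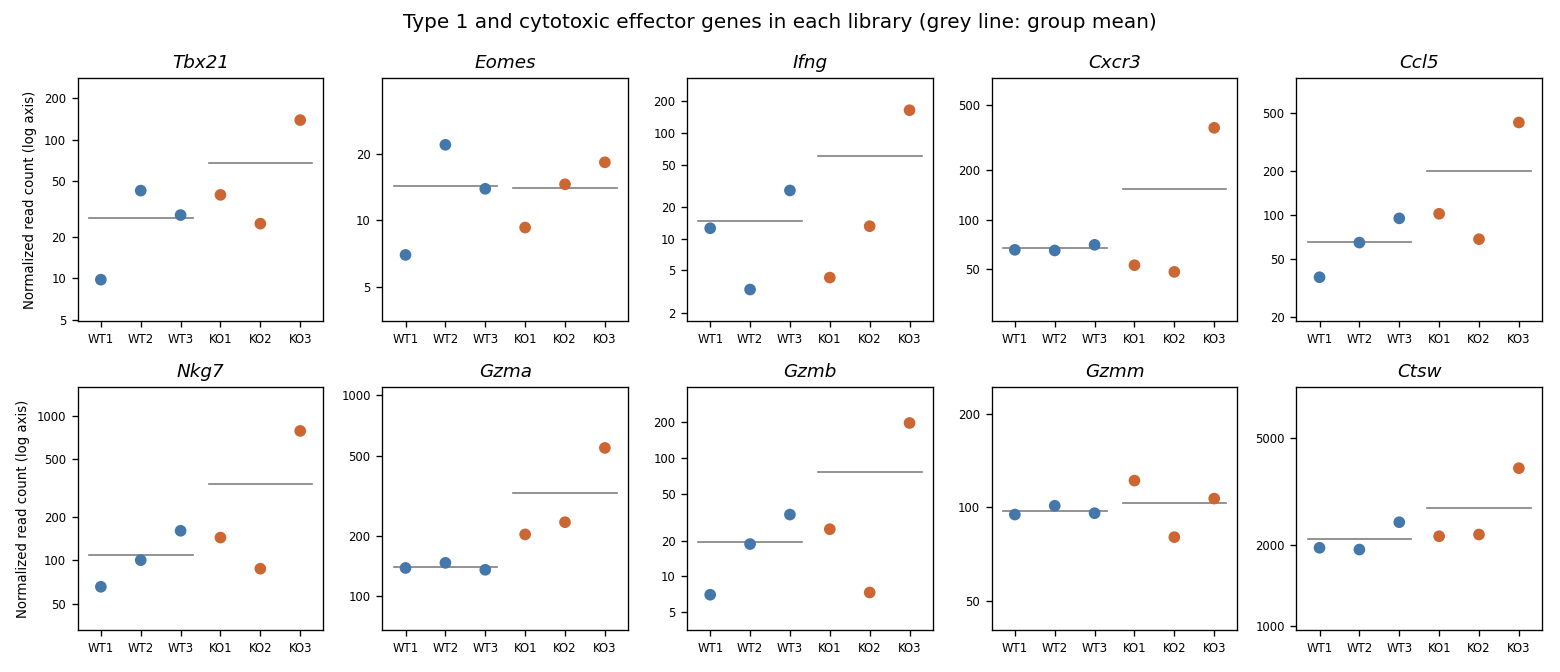
Normalized read count (log axis, different for each gene) of the 10 type 1 and cytotoxic effector genes in the 3 wild-type (blue) and 3 knockout (orange) libraries, with the group mean as a grey line. KO3 is the highest point in 8 panels, and Eomes and Gzmm are the exceptions.

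Upstream sequences of the genes are shown first, since 7 of the 10 were high in the same library. RefSeq sequences of build GRCm38.p6 were matched for 8 of the 10 genes, not for Ccl5 and Ctsw. They are 9 windows of 250 bases upstream of an annotated start, and a Gzmm window lies inside the gene. Matches to 3 short motifs of factors known in this program were searched on both strands, the T-box core GGTGTGA, the Runx core TGTGGT and the STAT palindrome TTCNNNGAA. Capitals mark the matches in the 5 genes that were at least 2-fold higher in KO3 than in any other library and held a match.
Nkg7, chr7:43436888-43437137, plus strand: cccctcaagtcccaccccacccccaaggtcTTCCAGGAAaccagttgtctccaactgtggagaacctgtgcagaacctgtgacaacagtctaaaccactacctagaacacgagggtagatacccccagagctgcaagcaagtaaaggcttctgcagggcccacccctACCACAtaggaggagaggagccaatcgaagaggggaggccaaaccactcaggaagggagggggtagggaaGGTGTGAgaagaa
Ifng, chr10:118440796-118441045, plus strand: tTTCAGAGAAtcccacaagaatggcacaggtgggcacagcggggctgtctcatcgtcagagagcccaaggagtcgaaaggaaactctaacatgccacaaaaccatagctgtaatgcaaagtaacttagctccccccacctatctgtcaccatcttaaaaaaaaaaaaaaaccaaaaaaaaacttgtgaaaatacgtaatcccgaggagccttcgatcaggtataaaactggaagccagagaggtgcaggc
Cxcr3, chrX:101734148-101734397, minus strand: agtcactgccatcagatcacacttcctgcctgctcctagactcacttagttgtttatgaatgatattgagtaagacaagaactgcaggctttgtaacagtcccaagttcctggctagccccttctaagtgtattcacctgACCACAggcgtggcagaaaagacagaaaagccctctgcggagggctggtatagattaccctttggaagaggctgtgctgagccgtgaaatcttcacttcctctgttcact
Gzma, chr13:113100982-113101231, minus strand: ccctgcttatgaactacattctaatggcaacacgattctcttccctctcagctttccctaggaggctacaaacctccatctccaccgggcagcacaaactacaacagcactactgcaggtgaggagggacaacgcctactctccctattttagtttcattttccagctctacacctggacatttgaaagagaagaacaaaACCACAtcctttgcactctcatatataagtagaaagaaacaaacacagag
Gzmb, chr14:56262335-56262584, minus strand: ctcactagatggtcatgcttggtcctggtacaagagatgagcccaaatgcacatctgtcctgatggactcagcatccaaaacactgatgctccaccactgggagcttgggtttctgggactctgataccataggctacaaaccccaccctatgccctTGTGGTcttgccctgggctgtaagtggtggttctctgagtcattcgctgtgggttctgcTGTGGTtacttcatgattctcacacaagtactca

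The Runx core was in the windows of 5 of the 8 genes (Nkg7, Cxcr3, Gzma, Gzmb and Gzmm), and in 14.0% of all 32851 windows of this length. The STAT palindrome was in 3 (Nkg7, Ifng and Gzmm; 7.02% of all windows) and the T-box core in 2 (Nkg7 and Gzmm; 3.33%). Counted per window, as the percentages are, these were 5, 3 and 2 of 9. No match overlapped another. Gzmm, which was not high in KO3, had 2 windows that together held all 3 motifs, and Tbx21 and Eomes held none. The T-box core of Gzmm was only in the window inside the gene (chr10:79693576-79693825). The matches are a description of the letters in these windows and were not tested against the expression values.

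Of the T-box factors, Tbx21 varied more than Eomes. Tbx21 (row NM_019507, chromosome 11, 97098007 to 97115331 of mm10) was at 9.76, 42.9 and 28.6 normalized reads in WT1, WT2 and WT3 and at 39.98, 24.8 and 139 in KO1, KO2 and KO3. KO3 was 3.23-fold above the next highest library, WT2, while KO1 and KO2 lay inside the wild-type range. The log2 fold change of the groups was 1.13 (95% interval -0.45 to 2.72; limma adjusted p 0.555), and 0.43 (-0.82 to 1.68) without KO3. The WT1 value rests on 7 reads, with a 95% Poisson interval of 2.81 to 14.4 reads, against 39 reads in WT2 (27.7 to 53.3). These intervals, here and below, cover counting error only, and copies made by PCR are not independent.

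Eomes (NM_010136, chromosome 9, 118478186 to 118486132) was the lowest of the 10 genes per length. Its normalized reads were 6.97, 22.0 and 13.9 in WT1, WT2 and WT3, against 9.28, 14.6 and 18.3 in the 3 knockouts. All 3 knockout values lay inside the wild-type range, KO3 included. In limma its log2 fold change was 0.06 (95% interval -1.14 to 1.26), an interval that holds 2-fold changes in both directions, and between 5 and 23 reads per library stood behind these values.

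Ifng (NM_008337, chromosome 10, 118441046 to 118445894) encodes interferon gamma, the main cytokine of type 1 helper cells. It was at 12.5, 3.30 and 28.6 in WT1, WT2 and WT3 and at 4.28, 13.1 and 164 in KO1, KO2 and KO3. KO3 alone was high, 5.74-fold above the next highest library, WT3. In reads, Ifng had 206 in KO3 (95% Poisson interval 179 to 236) against 37 in WT3 (26.1 to 51.0) and 3 in WT2 (0.619 to 8.77). Between groups the log2 fold change was 0.95 (-1.81 to 3.70; limma adjusted p 0.793), and below 0 without KO3, at -0.47 (-2.31 to 1.37). With all libraries this was the widest interval of the 10 genes.

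Cxcr3 (NM_009910, chromosome X, 101731535 to 101734147) encodes a chemokine receptor that leads type 1 cells into inflamed tissue. Wild-type libraries lay close together, at 65.5, 64.9 and 70.3 normalized reads. KO1 and KO2, at 52.8 and 48.1, were below all of them, and KO3, at 363, was 5.16-fold above the highest of them. The knockout libraries thus lay on both sides of the wild-type ones. The log2 fold change was 0.54 (-0.98 to 2.06; limma adjusted p 0.786) with all libraries and -0.40 (-0.95 to 0.15; limma adjusted p 0.379) without KO3. Without KO3 the groups of Cxcr3 did not overlap, which held in that direction for 19.0% of all rows.

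Ccl5 (NM_013653, chromosome 11, 83525778 to 83530518) encodes a chemokine that effector and memory T cells and natural killer cells secrete. It was at 37.6, 64.9 and 95.01 in WT1, WT2 and WT3, and at 102, 68.5 and 429 in KO1, KO2 and KO3. KO1 was just above WT3, KO2 lay among the wild-type values, and KO3 was 4.20-fold above KO1. Its log2 fold change was 1.22 (-0.21 to 2.65; limma adjusted p 0.478), the highest of the 10, and 0.44 (-0.39 to 1.26) without KO3.

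Nkg7 (NM_024253, chromosome 7, 43437138 to 43438246) encodes a membrane protein of cytotoxic granules. Its normalized reads were 65.5, 100.1 and 159.9 in WT1, WT2 and WT3, against 144, 87.4 and 783 in the 3 knockouts. KO3 stood 4.90-fold above WT3, and the other knockout values lay inside the wild-type range. The log2 fold change of Nkg7 was 1.07 (-0.56 to 2.697; limma adjusted p 0.585) and 0.14 (-0.65 to 0.93) without KO3.

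Gzma was the only one of the 10 whose 3 knockout libraries all lay on the same side of the wild-type libraries. Gzma (NM_010370, chromosome 13, 113093824 to 113100981) encodes granzyme A, a serine protease that killer cells release into their targets. It was at 138, 146 and 135 normalized reads in WT1, WT2 and WT3 (mean 140 ± 5.81, SD, n = 3) and at 203, 233 and 546 in KO1, KO2 and KO3 (mean 327 ± 190). KO1 and KO2 were each above every wild-type library, and KO3 was 2.34-fold above KO2. The log2 fold change was 1.08 (SE 0.33, 95% interval 0.32 to 1.83), which did not pass over all rows (limma adjusted p 0.207, unadjusted p 0.0107). By exact permutation of the libraries the two-sided p was 0.1, which is the lowest value this design can reach. Groups that did not overlap, with the knockout higher, were found in 9.21% of all tested rows, so 1 of 10 is close to the background. The opposite order was found in 0 of 10 genes and in 9.58% of all rows.

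Without KO3 the difference in Gzma was smaller and the spread smaller too. It came to a log2 fold change of 0.63 (SE 0.17, 95% interval 0.25 to 1.02; limma adjusted p 0.0683, unadjusted p 0.00419). The mean of KO1 and KO2 was 1.56-fold the wild-type mean, and non-overlap with the knockout higher was then found in 19.9% of all rows. The natural killer cell genes Ncr1, Tyrobp and Klrd1 did not share a direction in KO1 and KO2. Ncr1, an activating receptor of natural killer cells, was at 77.8 in KO1 and 64.1 in KO2 against 51.7 to 53.3 in the wild type, and Tyrobp, an adaptor of such receptors, at 87.1 and 61.2 against 60.0 to 88.1. Klrd1, a lectin-like receptor chain, was lower, at 394 and 552 against 741 to 876 (limma adjusted p 0.0218 without KO3). The 14 natural killer cell markers that are not among the 10 genes summed to 779 in KO1 and 882 in KO2 and to between 1024 and 1153 in the wild type. Klrd1 made up most of each of these sums, so they follow Klrd1 and do not show the direction of the other markers. Over the 9 listed natural killer cell genes tested without KO3, Gzma and Eomes included, the median log2 fold change was 0.26. Over all rows that median was -0.0027. The part of natural killer cells in the Gzma result was not tested.

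Gzmb (NM_013542, chromosome 14, 56258836 to 56262334) encodes granzyme B, which triggers apoptosis in target cells. Its values were 6.97, 18.7 and 33.2 in the wild type and 25.0, 7.29 and 198 in the knockout. KO3 was 5.95-fold above WT3, the widest such gap of the 10 genes, and KO1 and KO2 lay inside the wild-type range. WT1 and KO2 had 5 reads each (95% Poisson interval 1.62 to 11.7) and KO3 had 248 (218 to 281). The log2 fold change was 0.998 (-1.40 to 3.39; limma adjusted p 0.739), and -0.26 (-1.80 to 1.29) without KO3.

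Gzmm and Gzma belong to the same protease family and did not share a pattern over the libraries. Gzmm (NM_008504, chromosome 10, 79689020 to 79695261), which encodes granzyme M, was at 94.8, 101 and 95.8 in the wild type and at 122, 80.1 and 107 in the knockout. Its highest value was in KO1 and its lowest in KO2, so the groups overlapped. In the fit the log2 fold change was 0.06 (SE 0.20, 95% interval -0.40 to 0.53), and 0.02 without KO3. A difference of 2-fold in either direction lies outside that interval.

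Ctsw (NM_009985, chromosome 19, 5465043 to 5468628) encodes cathepsin W, a cysteine protease of cytotoxic lymphocytes. It was by far the most abundant of the 10, at 1955, 1926 and 2435 in the wild type and 2158, 2190 and 3870 in the knockout. KO3 was 1.59-fold above WT3, while KO1 and KO2 lay within the wild-type range. Its log2 fold change was 0.33 (-0.16 to 0.83; limma adjusted p 0.581), and 0.06 (-0.21 to 0.32) without KO3.

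**Figure D2:**
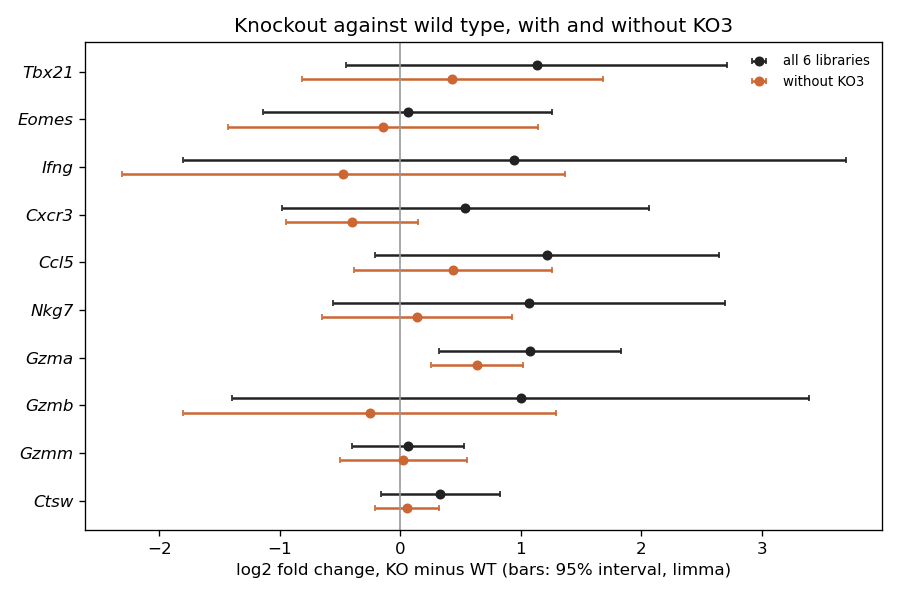
Log2 fold change, knockout minus wild type, of each of the 10 genes in limma with all 6 libraries (black) and without KO3 (orange), with 95% intervals. The interval of Gzma alone lies above 0 in both fits, and the points of Eomes, Ifng, Cxcr3 and Gzmb change side without KO3.

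Per length, wild-type levels of the 10 genes spanned a wide range, given here as normalized reads per kilobase of transcript (mean ± SD, n = 3). Ctsw was first at 1696 ± 230, below the T cell genes Cd3e at 4228 ± 1139 and Cd4 at 10781 ± 499. Gzma (159 ± 6.61), Ccl5 (124 ± 53.9), Nkg7 (123 ± 54.2) and Gzmm (75.6 ± 2.69) followed, and each overlapped its neighbour in that order. Cxcr3 came next at 38.7 ± 1.70, apart from the genes on either side of it. Gzmb (13.7 ± 9.15), Ifng (12.3 ± 10.6), Tbx21 (10.9 ± 6.68) and Eomes (4.02 ± 2.11) were lowest, and neighbours among these 4 did not differ beyond their spread. In KO3 Nkg7 reached 889, Ccl5 806 and Gzma 622 per kilobase, while Ifng was at 136, Gzmb at 138 and Eomes at 5.15. In bulk RNA, more cells of a type and more RNA per cell cannot be told apart.

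The wild-type spread was uneven among the 10. Cxcr3, Gzmm and Gzma varied little, with SDs of 2.94, 3.46 and 5.81 normalized reads around means of 66.9, 97.3 and 140. Ifng (14.8 ± 12.8), Gzmb (19.6 ± 13.1) and Tbx21 (27.1 ± 16.6) varied by more than a factor of 4 from the lowest to the highest library. WT1 was the lowest of all 6 libraries in 5 genes.

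**Figure D3:**
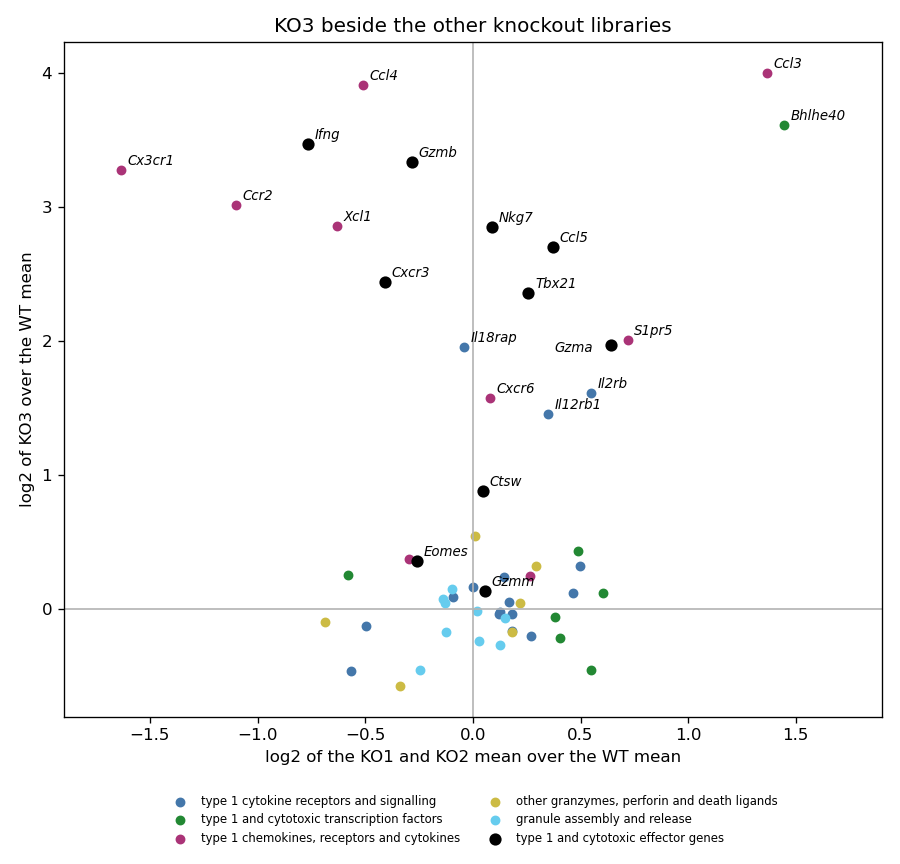
Each point is a tested gene of the 10 or of the related lists, with the log2 ratio of the KO1 and KO2 mean to the wild-type mean on the horizontal axis and of KO3 to the same wild-type mean on the vertical axis. Ifng, Gzmb and Cxcr3 lie high and left of 0 (ratios of KO1 and KO2 to wild type of 0.587, 0.822 and 0.754), Nkg7, Tbx21 and Ccl5 high and a little right of 0 (1.06, 1.20 and 1.30), and Bhlhe40 and Ccl3 high and to the right.

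Of 16 tested genes that carry type 1 cytokine signals into the cell, 1 fell, 0 rose and 15 did not pass in limma. An unadjusted p below 0.05 was found for 4. Of all tested rows, 1.19% were called as higher, 0.315% as lower, and 12.7% were below that p. The same shares apply to the lists below. Over these 16 the median log2 fold change was 0.11. Il27ra, the receptor for interleukin-27, fell by 0.53 on the log2 scale (SE 0.08, limma adjusted p 0.0169), from 11672 ± 192 to 8081 ± 560 (SD, n = 3 per group). It was low in all 3 knockout libraries, at 8335, 7439 and 8469, and fell by 0.57 without KO3 (limma adjusted p 0.00894). The call was lost with scaling to library totals (limma adjusted p 0.056), without the variance trend (0.101), and without WT1 (0.114), WT2 (0.0906), WT3 (0.109) or KO2 (0.0701). Il12rb1, a chain of the interleukin-12 receptor, was at 94 to 139 in the wild type and at 143, 153 and 317 in KO1, KO2 and KO3 (log2 fold change 0.73, SE 0.31, limma adjusted p 0.374). Il2rb, the beta chain of the interleukin-2 and interleukin-15 receptors, was at 1301 to 1687 and at 2579, 1969 and 4727 (0.90, SE 0.28, adjusted p 0.21). The interferon gamma receptor chain Ifngr1 was at 5763 to 7846 and at 8760, 10097 and 8335 (0.45, SE 0.13, adjusted p 0.175). The knockout values of these 3 genes lay above the wild-type values without passing, and KO3 was the highest for Il12rb1 and Il2rb only. These genes were named for their small p, and such non-overlap was found in 9.21% of all tested rows.

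Il18rap, a chain of the interleukin-18 receptor, had the pattern of the effector genes, at 121 to 138 in the wild type, 131 and 119 in KO1 and KO2 and 499 in KO3. Stat4, which carries the interleukin-12 signal, was at 7571 ± 426 and 8172 ± 958, and Il12rb2 at 434 ± 40.2 and 451 ± 42.4 (SD, n = 3 per group). KO3 was the highest library for 4 of the 16 genes.

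Transcription factors of the type 1 and cytotoxic programs, and those that oppose them, had 10 of 12 listed genes in the table and 7 tested. In limma 0 were called and 3 were below an unadjusted p of 0.05, around a median log2 fold change of 0.25. Bhlhe40, a factor that supports interferon gamma production, was at 26.5, 16.5 and 57.9 in the wild type and at 103, 80.1 and 411 in the knockout. KO3 was 4-fold above KO1, and KO1 and KO2 were themselves above the wild-type libraries. Its log2 fold change was 2.31 (SE 0.64, limma adjusted p 0.163), and 1.59 without KO3 (adjusted p 0.0788).

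Runx3, which drives the cytotoxic fate, was at 1127, 2002 and 1055 in the wild type and at 2527, 1556 and 1017 in the knockout, so it was lowest in KO3. Gata3, the type 2 factor, was at 926 to 1217 and at 1796, 1459 and 1160, and Bcl6, the follicular helper factor, at 640 to 950 and at 1383, 952 and 1123. Neither passed with all libraries (limma adjusted p 0.312 and 0.327). Without KO3, Gata3 rose by 0.61 on the log2 scale (limma adjusted p 0.0413) and Id2, an inhibitor of DNA binding that effector cells need, fell by 0.58 (limma adjusted p 0.0146). Id2 was at 1531 and 1720 in KO1 and KO2, below the 2290 to 2547 of the wild type, and at 2891 in KO3, above it. Zeb2 and Hlx, which act with T-bet, were under the limit of 10 normalized reads for testing, and their highest values, 15.9 and 7.97, were in KO3.

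Among 12 other type 1 chemokines, receptors and cytokines, 9 were tested. By limma 0 of these were called, while 2 were below an unadjusted p of 0.05. Their median log2 fold change was 0.50, and 0.07 over the 7 genes tested without KO3. KO3 was the highest library for 8 of the 9 and at least 2-fold above the next for 7. The inflammatory chemokine Ccl3 was at 2.79 to 12.4 in the wild type and at 12.1, 23.3 and 110 in KO1, KO2 and KO3 (log2 fold change 2.25, SE 0.82, limma adjusted p 0.294). Its relative Ccl4 was at 2.20 to 9.27, and at 5.71, 2.91 and 92.5. Ccr2, a receptor of effector and memory cells, varied within both groups, at 138, 39.6 and 151 in WT1, WT2 and WT3 and at 64.3, 37.9 and 883 in the knockout. The chemokine receptor Cxcr6, at 386 to 473 in the wild type, was at 400, 520 and 1300 (limma adjusted p 0.576). S1pr5, a sphingosine phosphate receptor of circulating killer cells, was at 1.39 to 14.3 and at 14.3, 13.1 and 33.5.

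Lta, which encodes lymphotoxin alpha, and Tnf differed less between libraries. Tnf was at 73.9 to 95.8 in the wild type and at 73.5, 65.6 and 111 in the knockout. Lta was at 464 to 537 in the wild type and at 569, 640 and 594 in the knockout (log2 fold change 0.26, SE 0.11, limma adjusted p 0.378). Csf2, a cytokine gene, was under the limit for testing and had the opposite order, at 18.1, 9.90 and 7.72 in the wild type and at 0.714, 1.46 and 3.19 in the knockout. In the fit without a filter its log2 fold change was -2.23 (SE 0.55, limma adjusted p 0.143). These values rest on 13, 9 and 10 reads in the wild type and 1, 1 and 4 in the knockout.

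None of the other killing genes was called. Of 12 listed, 8 were in the table and 6 were tested, with 0 called by limma, 1 below an unadjusted p of 0.05 and a median log2 fold change of 0.11. Prf1, which encodes the pore former perforin, was at 1817, 2148 and 1675 in the wild type and at 2499, 1760 and 1671 in the knockout. KO3 and WT3 were thus nearly level as the lowest libraries for Prf1. Serpinb9, an inhibitor of granzyme B, was at 898 to 1228 and at 1279, 1352 and 1335 (log2 fold change 0.31, SE 0.12, limma adjusted p 0.336). The death ligand Fasl, at 71.1 to 114 and 63.0 to 77.2, and its relative Tnfsf10, at 1525 to 1906 and 1803 to 2141, overlapped between groups, as did Gzmc at 18.1 to 29.4 and 9.28 to 22.3. Granzymes are close relatives, and how reads shared by 2 genes were counted was not stated in the labels.

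Genes for the assembly and release of granules, which many cell types use, held no call either. Of 11, 9 were tested. By limma 0 were called, 1 was below an unadjusted p of 0.05, and the median log2 fold change was -0.06. Rab27a, which docks granules at the membrane, was at 5685 to 6760 in the wild type and at 5056, 5535 and 4561 in the knockout (log2 fold change -0.31, SE 0.10, limma adjusted p 0.252). Lamp1, a granule membrane protein, was at 5530.5 to 6494 and 5350 to 5676, Srgn, the granule proteoglycan, at 8106 to 10243 and 7763 to 9523, and Unc13d, a priming factor, at 5972 to 6904 and 5444 to 6729. KO3 was the highest library for 1 of the 9.

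Many markers of other cell types were also highest in KO3. Cd8b1, a chain of the CD8 co-receptor, was at 557 to 1032 in the wild type, 744 and 695 in KO1 and KO2 and 4206 in KO3, and Cd8a at 4.40 to 33.2, 11.4 and 13.1, and 210. Of the 14 natural killer cell markers outside the 10 genes, KO3 was the highest library for 14. Klrb1c, Klrb1a, Klrc1, Klra1, Klra4 and Klra8 of these were under the limit for testing. Klra4 had means of only 0.722 in the wild type and 0.769 in the knockout. Ncr1 was at 341 there, Tyrobp at 396 and Klrb1c at 27.1, against at most 77.8, 88.1 and 10.2 in any other library. The sum of the 14 was 2341 in KO3 and 779 to 1153 in the others, and Klrb1a was at 0 in all 3 wild-type libraries.

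B cell markers, 9 in all, summed to 3687 in KO3 and to 403 to 743 in the others, with KO3 the highest for 8. Markers of natural killer T and gamma delta T cells, 5 in all, summed to 2323 in KO3 and 1709 to 2142 elsewhere. KO3 was the highest for 4 of these 5 and at least 2-fold above the next library for 4. The 13 markers of memory and activated T cells outside the 10 genes summed to 40257 in KO3 and 21416 to 26746 elsewhere, with KO3 the highest for 10 of them. Of these, S100a4 was at 895 in KO3 and at most 96.2 elsewhere, while Cd44 at 68.5 lay within the wild-type range of 66.4 to 89.2. The part of such cells in the KO3 values of the 10 genes was not tested.

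Not every marker list set KO3 apart to the same degree. Myeloid and dendritic cell markers summed to 1191 in KO3, 813 in WT1 and 153 to 471 in the rest, and Cd14 was at 0 in 5 of the 6 libraries. Erythroid and platelet markers summed to 128 in KO3, 105 in WT1 and at most 23.9 elsewhere. KO3 was the highest library for 6 of the 12 myeloid and dendritic cell markers and 2 of the 6 erythroid and platelet markers. The 8 regulatory T cell markers summed to 7503, 7684 and 10008 in the knockout and to 2607 to 2957 in the wild type, a sum in which Nrp1 took a large part. Of the 7 tested, 2 rose and 5 did not pass in limma. Nrp1 was at 334 to 397 in the wild type and 4137 to 4794 in the knockout (log2 fold change 3.60, limma adjusted p 1.42e-06), and Il2ra at 151 to 188 and at 358, 373 and 714 (1.43, adjusted p 0.0326). Foxp3, the defining factor of these cells, was low throughout and under the limit for testing, at 6.97, 9.90 and 9.27 in the wild type and at 11.4, 7.29 and 2.39 in KO1, KO2 and KO3.

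**Figure D4:**
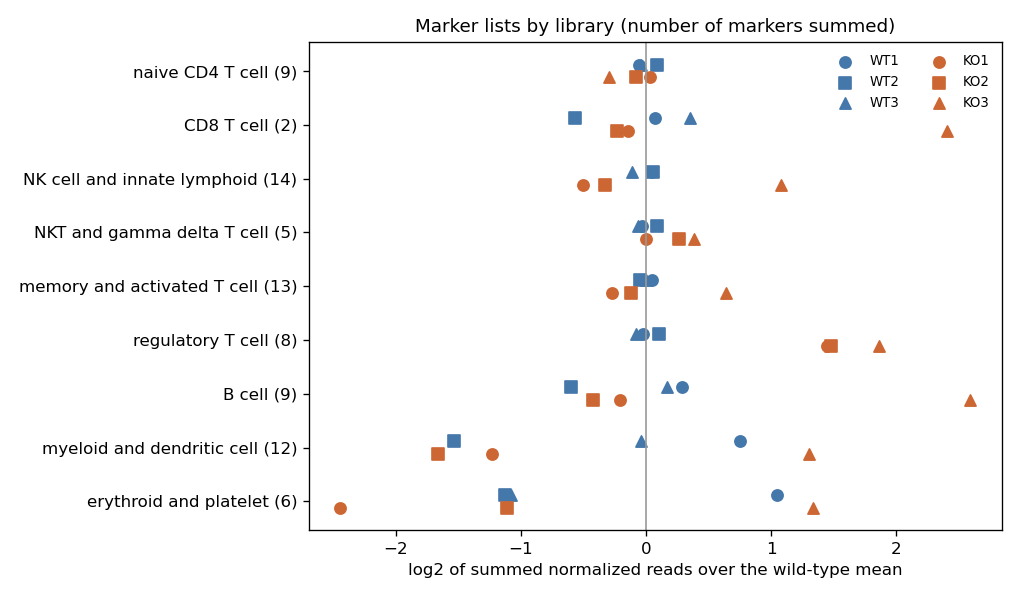
Summed normalized reads of 9 marker lists in each library, as log2 of the ratio to the wild-type mean, leaving out the 10 effector genes. KO3 (orange triangle) is to the right of every other library in 8 lists and to the left of them for naive CD4 T cell markers.

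The 5 genes whose profile over the 6 libraries was most like the mean profile of the 10 were sought among 9204 other genes with a mean of at least 50. The measure was the root mean square distance between centred log2 values over the 6 libraries. Tyrobp was closest, at a distance of 0.17. Myo1e, a myosin (0.20), Il18rap (0.21), and Cenpe and Kntc1, both of the mitotic kinetochore (0.22 and 0.24), followed. Cenpe was at 109 to 166 in the wild type, 168 and 169 in KO1 and KO2 and 488 in KO3. Among the 10 themselves, Ccl5 (0.30), Nkg7 (0.34) and Cxcr3 (0.34) were nearest to the mean profile, of which they are part, and Ifng (1.15) was farthest.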

How the data were processed

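RNA of 3 wild-type and 3 Trim28 knockout libraries was sequenced as 100 bp pairs, per the labels' protocols. The submitters' processing notes name mm10 as the build and STAR, HTSeq and DESeq2 as tools, with no roles. The authors deposited 1 table whose values are on a log10 scale, found from the values: 10 to the deposited log10 value, minus 1, gave whole multiples of 1 step per library for 100% of values, within 0.01 of a whole number. That step is the worth of 1 read, so reads were recovered. Whether strand was kept is not stated in the labels. Rows were named with a RefSeq gene table of GRCm38.p6 (18811 rows) and GENCODE M21 (104 rows), and 133 stayed unnamed. Transcript lengths came from GENCODE M21.

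The test was limma 3.58.1 in R 4.3.3 on log2-transformed normalized counts (pseudocount 1), using its trended empirical Bayes variance, over all 13022 rows with a mean of at least 10. Benjamini-Hochberg adjusted p-values were taken over all of these rows, two-sided, and fold changes on this scale understate those of low genes. The fit was tested on simulated counts with the same dispersion in every library and none set apart. That test does not cover a spread like the one KO3 brings to the 10 genes. Named genes are the 10 effector genes, up to 4 genes with the smallest p in each related list and those called, markers of other cell types, and 5 genes of like profile. Genes outside this rule (Il18rap, Stat4, Il12rb2, Runx3, Id2, Zeb2, Hlx, Ccl4, Ccr2, Tnf, Csf2 and Prf1) were named after their values were seen. Some genes of the lists are not reported here and enter no list count or sum. The effector genes, lists and alternatives were chosen with earlier results of these data known, and the motifs after the expression values were seen. Count models were not run on the recovered reads, and limma's voom weights on those reads took their place. The other settings were the pseudocount, the filter, 2 scalings, no trend, a replicate block, rows summed per gene, Y-linked transcripts as a covariate, and leaving out each library.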

Additional observations from a re-analysis of the deposited data

How the results depend on the processing

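Of the 10 genes, 0 were called under each of the 17 alternative settings in limma, at adjusted p from 0.0683 (Gzma without KO3) upward. Tbx21, Eomes, Ifng and Gzmb were not tested at a minimum mean of 50. The other counts and directions moved as follows, and the cause was not tested. Over all rows, 196 were called, 124 without the trend, and between 113 (without KO2) and 553 (without KO3) when 1 library was left out. Without WT1 the count was 124 and without WT3 it was 127. Eomes changed sign under quantile normalization (-0.075), with voom weights (-0.023) and without 1 library (-0.35 to 0.42, lowest without WT1). Gzmm did so under quantile normalization (-0.030) and without KO1 (-0.071 to 0.23 over the left-out libraries). Leaving out 1 library gave -0.47 to 2.01 for Ifng, -0.40 to 1.04 for Cxcr3 and -0.26 to 2.04 for Gzmb, the lowest without KO3 each time. For Srgn and Unc13d the ranges were -0.16 to 0.020 and -0.14 to 0.014. Il27ra was not called with scaling to library totals (-0.48), without the trend (-0.53), or without WT1, WT2, WT3 or KO2 (-0.54 to -0.47). The labels do not say whether libraries with the same replicate number are paired. Deviations of same-numbered libraries correlated at -0.31, 0.26 and 0.36 over rows, and only number 3 had its own number as best partner. With 3 libraries a group, and KO3 apart from the rest, these correlations cannot settle whether the libraries are paired. With the replicate number as a block 175 rows and 0 of the 10 genes were called, their median log2 fold change was 0.97, and Bhlhe40 was called (adjusted p 0.00779). Low reads limit Eomes, Ifng, Gzmb and Tbx21, and 3 libraries a group limit all genes.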

Other observations

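Some genes of other lineages ordered the libraries in a way that cuts across genotype, chosen after their values were seen. H2-Aa, a class II antigen presentation gene, was at 293, 72.6 and 307 in WT1, WT2 and WT3 and at 106, 72.9 and 2001 in KO1, KO2 and KO3. Ms4a1, a B cell surface gene, was at 64.1, 4.40 and 54.8, and at 7.14, 13.1 and 314. Like Ccr2, both were highest in KO3, next in WT1 and WT3, and low in WT2, KO1 and KO2. Tbx21, Ccl5, Nkg7 and Gzmb were also highest in KO3 but had WT1 as their lowest library.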
